A study of Rattus norvegicus with 4 samples.

Results

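Galectins are small lectins that bind beta-galactose sugars on glycoproteins, inside and outside the cell, and that crosslink receptors, matrix and immune cells. Lgals1 (galectin-1) is made by glia and fibroblasts and has been studied in axon regrowth, while Lgals3 (galectin-3) is known as the Mac-2 antigen of macrophages and phagocytic glia, and Lgals3bp encodes a secreted glycoprotein that binds galectin-3. Their mRNAs were read in cultured cells labelled as olfactory ensheathing cells, glia that enclose olfactory axons on their way to the brain. The genes were chosen by name: Lgals1, Lgals2, Lgals3, Lgals4, Lgals5, Lgals7, Lgals8, Lgals9 and Lgals3bp, which are 9 of the 35658 gene names on the array and are read by 11 probes.

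Cultured ensheathing cells of male Fischer rats had been sorted by flow cytometry into p75High and p75Low populations, p75 being a neurotrophin receptor of low affinity. Each of 4 biological replicates gave 1 Agilent array, on which Cy5 always marked the p75High cDNA and Cy3 the p75Low cDNA. No treatment or genotype is named for either population, and no age is given. The dyes were never exchanged, so a dye effect on a probe and a difference between the populations cannot be told apart. A ratio here is the log2 of p75High over p75Low; a level is a log2 spot intensity after normalization within an array. Both are given by array or as mean ± SD over the 4 arrays. The adjusted p is from limma with Benjamini-Hochberg adjustment over the 22193 genes tested. Whether each replicate came from its own animals or cultures is not given, so these p-values measure the spread between the samples, part of which may be technical.

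The sort and the cell types were checked first. Ngfr, which encodes p75, read 6.07, 6.17, 5.02 and 5.96 in replicates 1 to 4. The glial genes Sox10 and S100b had mean levels of 12.62 and 10.64 in p75High, against 8.06 and 6.89 in p75Low. Of 14 microglia and macrophage markers tested, 9 were lower in p75High past the threshold of 0.05, as were 0.437% of all genes. On all 4 arrays 13 were lower, as were 13.0% of all genes, and the list median was -4.57. The mean level of these 14 markers on an array ran from 8.45 to 9.47 in p75High and from 12.48 to 13.95 in p75Low. All 14 were well above background on the 4 arrays in p75Low, and 13 were so in p75High. For p75Low these markers go against the label of ensheathing cells, and the population is called p75Low here by its sort. Of 9 fibroblast markers on the array 5 were tested, while Dcn, Lum, Pdgfra and Pdgfrb had no probe kept for testing. Of the 5 tested, 0 passed by limma, and their median was 2.73. Col5a2 read 6.17 ± 1.75, Postn 4.80 ± 1.60, Col1a1 2.73 ± 1.20, Col3a1 -2.42 ± 3.91 and Col1a2 -2.71 ± 1.48. Their mean level ran from 11.80 to 13.17 in p75High and from 9.98 to 11.34 in p75Low. The part of these cell types in the galectin ratios was not tested. In these bulk samples, fewer cells of a type and less RNA per cell cannot be told apart.

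The sequences of the probes on which the results turn are shown here, since each decides which transcript a reading stands for. They are 60-base probes, 1 spot each, written 5′ to 3′ from the array files; for Lgals3, bases 27 to 56 are shown, with the polyadenylation hexamer in capitals.
Lgals1: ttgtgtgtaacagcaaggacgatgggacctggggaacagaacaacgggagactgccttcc
Lgals2, probe for its RefSeq mRNA: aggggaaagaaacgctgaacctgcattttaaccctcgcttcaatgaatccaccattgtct
Lgals2, probe for an expressed sequence tag: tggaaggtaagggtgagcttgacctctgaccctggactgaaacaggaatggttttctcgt
Lgals3: agacatccatttAATAAAgtctcgtgctga
Lgals5: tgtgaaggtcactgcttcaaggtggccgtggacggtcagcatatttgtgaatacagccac
Lgals9: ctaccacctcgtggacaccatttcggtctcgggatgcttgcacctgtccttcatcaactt

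On rn4, the build named in the file headers, the Lgals1 probe lies at chr7:116896275-116896334 and the Lgals3 probe at chr15:23338947-23339006. The Lgals5 and Lgals9 probes lie at chr10:65075998-65076057 and chr10:65137464-65137523. The Lgals2 probes lie next to each other at chr7:116811860-116811919 and chr7:116811649-116811822, but the file writes them in opposite directions. The first runs along the minus strand, which RefSeq gives as the strand of Lgals2, and the second, for the expressed sequence tag, runs along the plus strand. Among 5734 probes for RefSeq mRNAs whose gene has a strand in the table, 94.5% ran along the strand of their gene. Whether the tag probe reads Lgals2 mRNA, its complement or both in the amplified cDNA was not tested. The longest run of bases that probes of different members shared was 11, between Lgals4 and Lgals5.

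No member passed the threshold. Of the 8 members tested, 0 were called higher and 0 lower by limma, where 0.311% of all genes were called higher and 0.437% lower, and 3 had an unadjusted p under 0.05. Of these, Lgals1 was above 0, as were 5.82% of all genes at that p, and Lgals5 and Lgals9 were below 0, as were 6.91%. Means were above 0 for 3 members (Lgals1, Lgals2 and Lgals7) and below 0 for 5 (Lgals3, Lgals3bp, Lgals5, Lgals8 and Lgals9). The median over the 8 was -0.91, against -0.03 over all genes. Lgals1 alone was above 0 on all 4 arrays, as were 12.5% of all genes. Lgals3, Lgals5 and Lgals9 were below 0 on all 4 arrays, as were 13.0% of all genes. The ratio of the remaining 4 changed sign between arrays. Lgals4 was too dim to test.

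**Figure D1:**
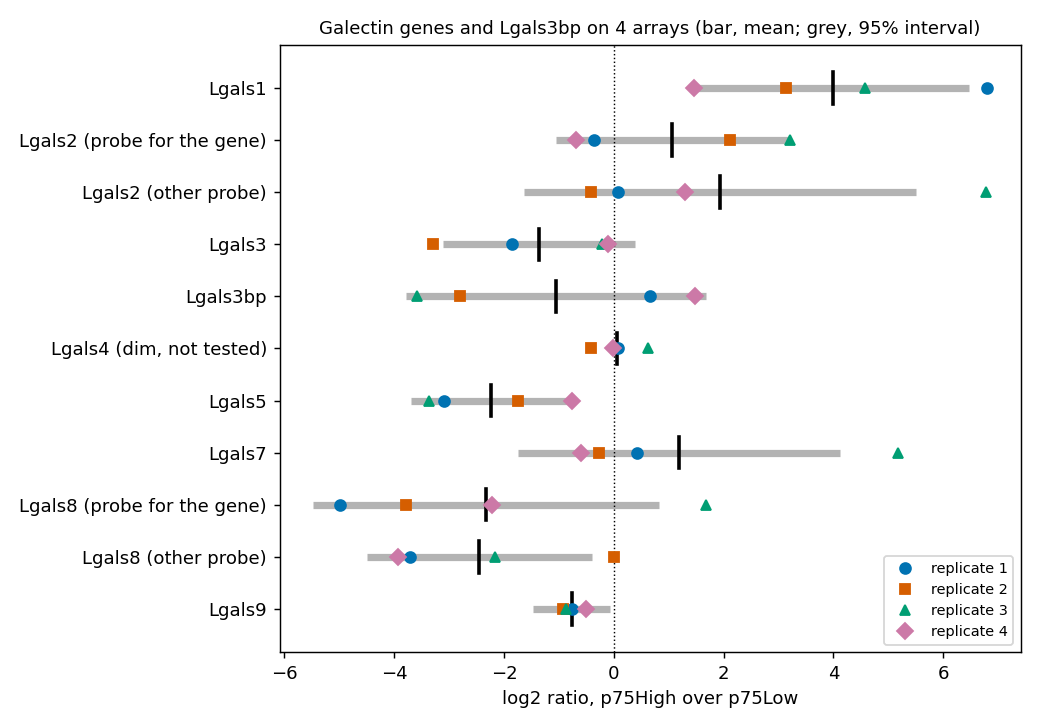
Log2 ratio of p75High over p75Low (horizontal axis) for each of the 11 probes, with a coloured point for each replicate, a black bar for the mean of 4 arrays and a grey bar for the 95% interval of the limma fit, unadjusted; the probe for the gene is the brighter of a pair, which for Lgals2 is the tag probe. The 4 points of Lgals1 lie right of 0, those of Lgals3, Lgals5 and Lgals9 lie left of it, and the triangles of replicate 3 stand far right for Lgals2 and Lgals7.

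Lgals1 had the largest ratio in size. It read 6.79, 3.13, 4.58 and 1.47 in replicates 1 to 4, so p75High was the brighter channel each time, by amounts that differed widely. The mean was 3.99 ± 2.26, a 15.9-fold ratio (95% interval 1.51 to 6.48, limma adjusted p = 0.257). The spread lay in the p75High channel. Its level there was 15.16, 12.30, 13.69 and 9.54, a range of 5.63, against 8.37, 9.16, 9.12 and 8.07 in p75Low, a range of 1.09. The lowest p75High level lay above the highest p75Low level, so the populations did not overlap. Such a gap in that direction was seen in 5.09% of all genes, and the opposite gap in 4.00%. Arrays were not normalized to each other, so differences in level between arrays include differences in array brightness. Without replicate 1 the mean was 3.06, and the adjusted p ranged from 0.129 to 0.532 over the 12 alternative settings. The 5 fibroblast and 12 glial markers tested had medians of 2.73 and 0.91 in the same contrast. Their part in the Lgals1 ratio was not tested.

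The 5 genes with a symbol whose ratios lay closest to those of Lgals1 over the 4 arrays were Uhmk1, Slc27a1, Dst, Afap1l2 and Bpgm. Their root mean square distance from Lgals1 ran from 0.51 to 0.88 on the log2 scale. Uhmk1, a protein kinase, read 5.93, 3.45, 4.16 and 1.63. Dst, which encodes the cytoskeletal linker dystonin, read 6.94, 2.68, 4.49 and 2.91. These genes were picked for that likeness out of 10651 genes with a symbol, and none of the 5 passed the threshold (adjusted p = 0.182 to 0.318). The likeness is that of the brightest probe. With the median over probes the mean fell from 3.77 to 1.66 for Slc27a1 and from 4.25 to 2.82 for Dst. For Uhmk1, Afap1l2 and Bpgm this setting could not change the mean, since no further kept probe entered the median.

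Lgals3, the only galectin with a long proline- and glycine-rich tail that lets it form oligomers, gave a small mean ratio. It read -1.85, -3.29, -0.21 and -0.10 in replicates 1 to 4. Replicates 1 and 2 carried the difference, and the channels were within 0.21 of each other in replicates 3 and 4. The mean was -1.36 ± 1.51 (95% interval -3.11 to 0.38, adjusted p = 0.47). The pairs near 0 differed in kind. In replicate 4 both channels were bright, at 11.93 in p75High and 12.04 in p75Low, while in replicate 3 neither channel was well above background, at 6.02 and 6.23. The p75High levels were 8.40, 6.20, 6.02 and 11.93 and the p75Low levels 10.25, 9.49, 6.23 and 12.04, so the populations overlapped. On the same 4 arrays the median of the macrophage markers was -4.66, -5.21, -5.00 and -4.88. Without replicate 2 the mean of Lgals3 was -0.72.

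Among the genes closest to Lgals3 by the same measure were Gspt1, RT1-CE4, Tlr2 and Mtss1, at distances of 0.23 to 0.39. Tlr2, a receptor for bacterial lipoproteins, read -1.41, -3.03, -0.66 and -0.28. RT1-CE4, an MHC class I gene, read -1.47, -3.20, 0.08 and 0.41. None of these 4 passed (adjusted p = 0.388 to 0.57).

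Lgals1 minus Lgals3, taken within each array, was 8.65, 6.43, 4.79 and 1.57. In replicate 3, where Lgals1 read 4.58, neither Lgals3 channel was well above background, so the 4.79 there rests on dim Lgals3 spots. The difference was above 0 on 4 of 4 arrays, with a mean of 5.36 ± 2.98 (exact sign-flip permutation test, two-sided p = 0.125, 0.25 adjusted over 2 differences). With 4 arrays this test cannot give a p under 0.125.

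Lgals3bp differed in sign from Lgals3 in replicates 1 and 4. It read 0.66, -2.80, -3.58 and 1.48, below 0 in replicates 2 and 3 and above 0 in replicates 1 and 4. The mean was -1.06 ± 2.50 (95% interval -3.80 to 1.68, adjusted p = 0.68), and -0.22 without replicate 3. The p75Low channel held the spread, at 6.46, 10.76, 10.31 and 6.15, and it was not well above background in replicate 1. The p75High levels lay between 6.73 and 7.96. Lgals3bp minus Lgals3 had a mean of 0.31 ± 2.59 and was above 0 on 3 of 4 arrays (exact permutation p = 0.875, also after adjustment). The exception was replicate 3, at -3.37, where neither Lgals3 channel was well above background.

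**Figure D2:**
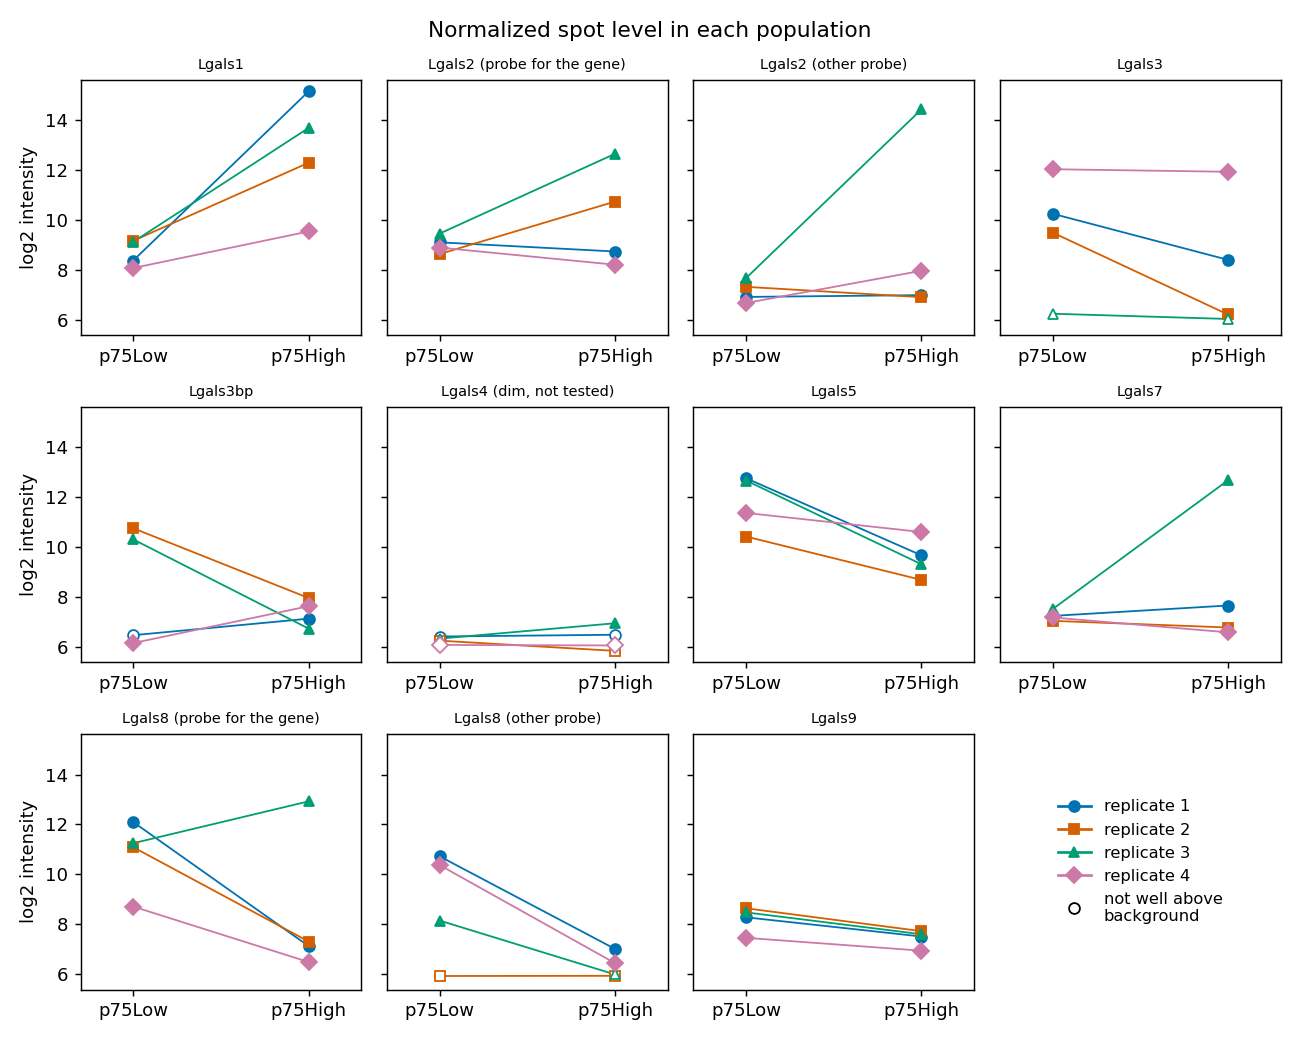
Log2 intensity after normalization within arrays (vertical axis) in p75Low and p75High for each probe, with a line for each replicate and open symbols where the spot was not well above background. Lines rise for Lgals1 and run nearly parallel for Lgals9, and replicate 3 alone climbs above 12 in p75High for Lgals7, the brighter Lgals8 probe and both probes of Lgals2.

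Lgals5 and Lgals9 are neighbours on rat chromosome 10. Galectin-9 joins a pair of sugar-binding domains by a linker and acts on T cells and eosinophils, and galectin-5 is a small galectin of rat reticulocytes. Lgals5 read -3.10, -1.74, -3.36 and -0.77, with a mean of -2.24 ± 1.21 (95% interval -3.70 to -0.79, adjusted p = 0.271). Its levels were 9.67, 8.68, 9.31 and 10.61 in p75High and 12.76, 10.42, 12.67 and 11.37 in p75Low, so p75Low was brighter on each array although the ranges overlapped. Lgals9 read -0.77, -0.92, -0.88 and -0.52, with a mean of -0.77 ± 0.18 (95% interval -1.48 to -0.06, adjusted p = 0.365). This was the narrowest spread of the members tested, below that of all but 3.63% of genes. Its levels were 6.93 to 7.71 in p75High and 7.45 to 8.63 in p75Low. Of the red cell markers that go with galectin-5 in reticulocytes, Alas2 read -0.32 ± 0.38, Ahsp -0.41 ± 0.43 and Hbb 0.52 ± 0.24, and 0 of 5 tested passed the threshold. Whether the Lgals5 probe also binds Lgals9 mRNA was not tested.

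The sequences before the starts of these genes shared a long stretch. In a local alignment of the 250 bases before each RefSeq start (GRCr8), Lgals5 and Lgals9 had 175 identical positions, 6 mismatches and 32 gap positions, with an unbroken identical run of 82 bases. The pair with the next highest alignment score among the 7 members in the table, Lgals4 and Lgals8, had 13 identical positions. The block of 97 bases nearest the start of Lgals9 is shown with its counterpart in Lgals5, both on the minus strand, with the 6 differing bases in capitals. It lies at chr10:64355175-64355271 for Lgals5 and chr10:64428071-64428167 for Lgals9.
Lgals5: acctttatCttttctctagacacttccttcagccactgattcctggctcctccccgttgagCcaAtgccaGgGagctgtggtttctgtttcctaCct
Lgals9: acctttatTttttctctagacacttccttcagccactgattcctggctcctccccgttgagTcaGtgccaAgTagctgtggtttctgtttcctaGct
The AP-1 motif TGAGTCA or its reverse complement TGACTCA, searched after the differing bases were seen, occurs in the 250 bases of Lgals9 and in 4.05% of all 33469 promoters, and it has no match in those of Lgals5 or of the 5 other members.

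Lgals8, a galectin with a pair of sugar-binding domains that marks damaged endosomes, has 2 probes, which did not tell the same story on every array. The brighter probe, at chr17:68613755-68613814, read -4.98, -3.79, 1.68 and -2.23, with a mean of -2.33 ± 2.90 (95% interval -5.47 to 0.82, adjusted p = 0.487). Replicate 3 had p75High brighter, and the other arrays had p75Low brighter. The other probe begins at base 906 of its target transcript, against base 2247 for the brighter one, and spans 4630 bases of the genome. It read -3.72, 0.01, -2.17 and -3.94, with a mean of -2.45 ± 1.82 (adjusted p = 0.347 in a fit over all probes). In replicate 2 neither of its channels was well above background. The probes lay 3.80 apart in replicate 2 and 3.85 apart in replicate 3. Among the 2289 genes with at least 2 such probes, the brightest pair differed by a median of 1.23 on an array and by over 3 in 22.9% of readings. Without replicate 3 the brighter probe had a mean of -3.67 (adjusted p = 0.298).

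Lgals2 and Lgals7 code for galectins with a lone sugar-binding domain, of the gut and of stratified epithelia. The tag probe of Lgals2, the brighter of its pair, read -0.37, 2.11, 3.20 and -0.69, with a mean of 1.06 ± 1.90 (adjusted p = 0.603), and 0.35 without replicate 3. The probe for its RefSeq mRNA read 0.07, -0.42, 6.78 and 1.29, with a mean of 1.93 ± 3.31 (adjusted p = 0.581 in a fit over all probes). Replicate 3 was the highest by either probe. Lgals7, whose probe spans chr1:83969453-83969855, read 0.42, -0.27, 5.17 and -0.60, with a mean of 1.18 ± 2.70 (adjusted p = 0.669). Its mean was -0.15 without replicate 3, so its sign rested on that array. In p75High the level of Lgals7 reached 12.68 in replicate 3, against 6.58 to 7.65 on the other arrays, while p75Low lay between 7.04 and 7.50. In replicate 3, 2 of the 8 members tested, Lgals1 and Lgals7, had a ratio above 4, as did 4.94% of all genes. In that replicate the epithelial markers Krt14, Cldn4 and Krt5 read 1.68, 1.38 and -0.52, and the median of the 6 tested was 0.08. Of these 6, Krt14 (1.57 ± 0.63) and Krt8 (0.89 ± 0.94) were above 0 on all 4 arrays, as were 12.5% of all genes. By limma 0 of the 6 passed the threshold. The part of epithelial cells in the Lgals7 ratio was not tested.

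Lgals4, an intestinal galectin, was near background. Its probe, which spans chr1:83949767-83950215, was well above background in p75High in replicate 3 alone and in p75Low on 0 of 4 arrays. Its ratios of 0.07, -0.41, 0.62 and -0.02 therefore compare dim spots, and it was not tested.

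The proteins that galectins bind were read from a list of 36 counter-receptors and ligand glycoproteins, of which 29 were tested. By limma, 0 were called higher and 0 lower, and 3 above and 4 below 0 had an unadjusted p under 0.05, against 5.82% and 6.91% of all genes. The list median was -0.31. On all 4 arrays, 3 of the 29 were above 0 and 3 below 0, against 12.5% and 13.0% of all genes. Havcr2, which encodes the galectin-9 receptor TIM-3 of immune cells, had the smallest p. It read -5.74, -3.25, -3.53 and -4.15, with a mean of -4.17 ± 1.11 (adjusted p = 0.0667). It passed with the scanner ratios (-4.76, adjusted p = 0.0464) and with the stricter filter (adjusted p = 0.0492). Over the 12 alternative settings its limma adjusted p ran from 0.0464 to 0.209. Mcam, an adhesion protein that binds galectin-1, read 2.10, 6.16, 4.95 and 7.41, with a mean of 5.15 ± 2.27 (adjusted p = 0.168). It passed only with no replicate block, a fit that ignores the pairing of channels (adjusted p = 0.0432). Over the 12 alternative settings its limma adjusted p ran up to 0.449. With the median over probes its mean was 3.82. Thy1, a surface glycoprotein of neurons and fibroblasts, read -0.99 ± 0.38 (adjusted p = 0.326), and -2.96 with the scanner ratios.

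Enzymes that build, cap or trim the sugars that galectins bind were read from a list of 32, of which 23 were tested. By limma, 0 were called higher and 0 lower, and 0 above and 3 below 0 had an unadjusted p under 0.05, against the same 5.82% and 6.91% of all genes. The list median was 0.01. St3gal6, a sialyltransferase that caps galactose, read -3.63, -2.99, -0.65 and -4.53, with a mean of -2.95 ± 1.66 (adjusted p = 0.262). With the scanner ratios it passed, at -4.31 (adjusted p = 0.0418). Over the 12 alternative settings its limma adjusted p ran from 0.0418 to 0.564. Neu1, the lysosomal sialidase, read -2.74 ± 1.55 (adjusted p = 0.271). B4galt1, which adds galactose to N-glycans, read -2.70 ± 1.87 (adjusted p = 0.321). All 3 were below 0 on 4 of 4 arrays, but they were picked for the smallest p. Over the list, 4 of 23 were below 0 and 3 above 0 on all 4 arrays. The shares of all genes were 13.0% and 12.5%.

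**Figure D3:**
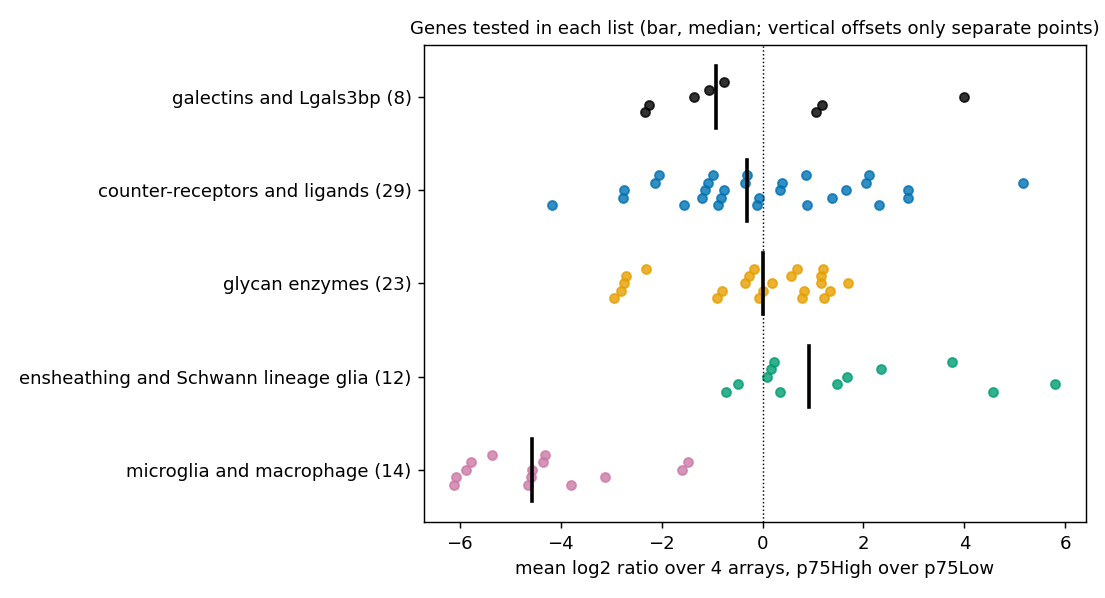
Mean log2 ratio over 4 arrays (horizontal axis) of the genes tested in 5 lists, with a point for each gene and a bar for the list median. The 8 members tested spread from -2.33 to 3.99, the binding partners and enzymes lie on both sides of 0, and the 14 macrophage markers lie between -6.11 and -1.49.

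The sign of the mean was the same under all 12 alternative settings for Lgals1, Lgals2, Lgals3bp, Lgals5, Lgals8 and Lgals9. It was so for Lgals3 under the 11 settings that tested it. Lgals7 turned without replicate 3. Some of these settings left the means as they were. With no replicate block, no filter or the stricter filter, the same probe gave the same mean for each member tested. With the median over probes, only Lgals2 and Lgals8, which have 2 probes, could change. No member passed the threshold in any setting, and the smallest adjusted p was 0.129, for Lgals1 with the scanner ratios.

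**Figure D4:**
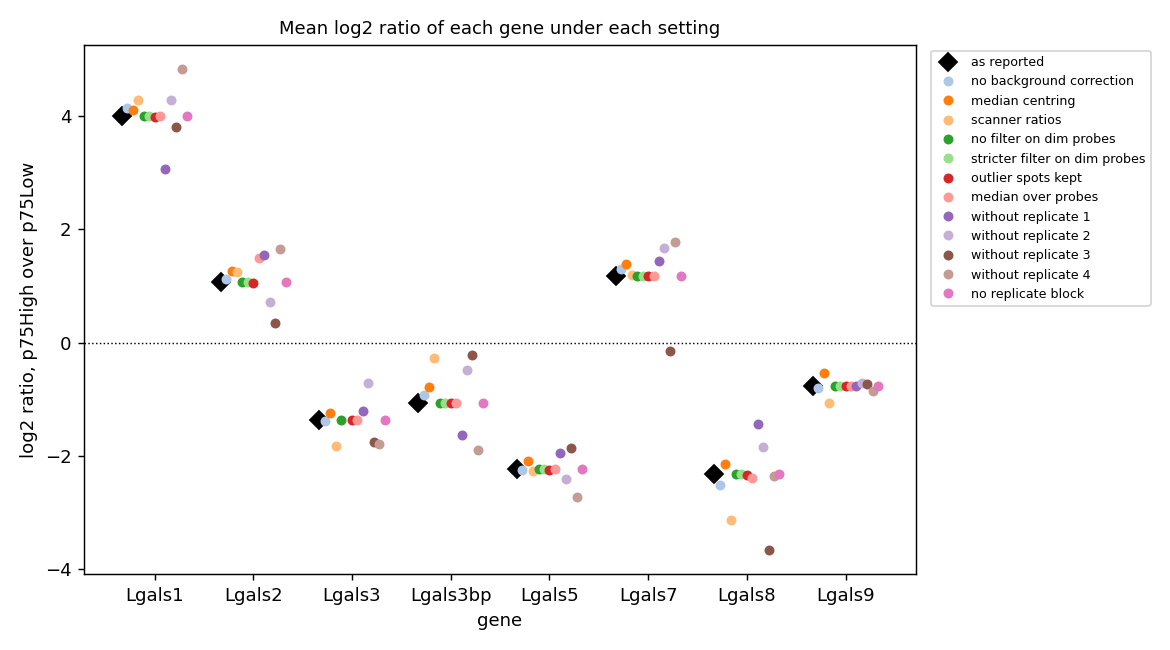
Mean log2 ratio (vertical axis) of each member tested under the reported setting (black diamond) and 12 alternatives (coloured points). Lgals1 stays between 3.06 and 4.83, Lgals9 between -1.06 and -0.54, and Lgals7 crosses 0 where replicate 3 is left out.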

How the data were processed

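Agilent rat arrays of design 014879 were read with Feature Extraction 10.5.1.1, per the file headers (10.5 per the submitters' processing notes); mRNA had been amplified by a global PCR, per the labels' protocols. The deposited intensity values were mean spot and median background brightness per channel, without normalization, per the file headers. The deposited log10 ratios, dye-normalized by the scanner software per the file headers, equalled the authors' value table (maximum difference 0) and served as an alternative.

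Intensities were background-corrected (normexp, offset 50) and loess-normalized (span 0.3) in limma 3.58.1 under R 4.3.3. Control and outlier spots (0.641% of readings) had weight 0 or were left out. A probe was kept when well above background in 1 channel on at least 3 arrays (22463 to 28062 of 41012 probes were so per array and channel), and each gene was represented by its brightest kept probe. Symbols came from a RefSeq GRCr8 table, which matched 10835 probes by accession, 5196 by symbol and 3478 by older symbol. The ratio, paired within an array, was fitted across all genes against 0 with lmFit and eBayes, and the fit was tested on simulated data.

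The members and lists were chosen with earlier results of these data known. Named genes were all members, Ngfr, list genes past the threshold or among the 3 smallest p, and the 5 genes closest to Lgals1 and Lgals3, of which 1 is not reported here; other markers named were chosen after their values were seen. Alternatives were no background correction, median centring, the scanner ratios, no or a stricter filter, outlier spots kept, the median over probes, each replicate left out and no replicate block. Depth on arrays is signal over background, and 4 arrays limit the precision.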

Additional observations from a re-analysis of the deposited data

Results flagged for a closer look

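Of 57 sets of 4 array values, 3 had an array far from the other 3, where chance gives about 1 in 20. The p75High level of the Lgals2 probe for its RefSeq mRNA reached 14.44 in replicate 3, against 6.90 to 7.96 elsewhere. The p75High level of the brighter Lgals8 probe reached 12.93 in replicate 3, against 6.47 to 7.30 elsewhere. The median of the enzyme list stood at -1.06 in replicate 4, against 0.05 to 0.06 on the remaining arrays.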

How the results depend on the processing

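The calls over all genes, 69 higher and 97 lower, were 111 and 154 with the scanner ratios, 37 and 52 with no filter on dim probes, and 177 and 166 when the pairing of channels was ignored (no replicate block); they were 0 and 0 in limma without any 1 of the 4 replicates (1885 to 2374 genes at an unadjusted p under 0.05). Among counter-receptors and ligands, 1 gene was lower with the scanner ratios and with the stricter filter, and 1 was higher with no replicate block; among enzymes, 1 was lower with the scanner ratios. Leaving out each replicate in turn gave means of 3.06 to 4.83 for Lgals1, -1.79 to -0.72 for Lgals3, -1.91 to -0.22 for Lgals3bp (-0.28 with the scanner ratios), -0.15 (without replicate 3) to 1.77 for Lgals7 and -3.67 to -1.45 for Lgals8. Lgals1 minus Lgals3 then ran from 4.26 to 6.62, and Lgals3bp minus Lgals3 from -0.43 (without replicate 1) to 1.53, with -0.12 without replicate 4. Lgals4 with no filter read 0.06 (adjusted p = 0.931). The causes were not tested. The arrays shared 1 slide, so no slide block could be fitted. Dim spots limit Lgals3 in replicate 3, Lgals3bp in replicate 1, the second Lgals8 probe in replicates 2 and 3 and Lgals4 throughout.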

Other observations

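The array held other galectin-related probes outside the members, looked up after the members' values were seen. Lgalsl, a galectin-like gene named RGD1307414 in the array file, read 2.94, 2.35, 1.70 and 0.22 by the probe that represented it, with a mean of 1.80 ± 1.17 (limma adjusted p = 0.321), and 0.67 ± 1.25 by the other. The first of these probes was well above background in p75Low on 1 of 4 arrays and in p75High on 3, so its ratios are mostly against a dim channel. Grifin, a galectin-related gene of the lens, read 0.21 ± 1.04 and was bright enough to count as above background in either channel of each array. Lgals12, an adipocyte galectin, read 0.08 ± 0.39. A probe described as similar to galectin-8, which shared 17 bases in a row with the dimmer Lgals8 probe, read -2.07, -0.08, -1.09 and -2.08 where that probe read -3.72, 0.01, -2.17 and -3.94. Each of these 2 probes was well above background in p75High on 2 of 4 arrays and in p75Low on 3.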
